A study of Rattus norvegicus with 4 samples.

Results

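The endothelin genes are described here in whole carotid bodies (CBs) of neonatal and adult rats. The set was fixed by gene symbol and holds the 3 ligand genes Edn1, Edn2 and Edn3, the 2 receptor genes Ednra and Ednrb, and the 2 converting enzyme genes Ece1 and Ece2. All 7 symbols were found among the 32883 genes of the count table, with 1 entry each. Reads of 6 of the 7 genes were counted in every library, and Edn2 had none. The filter on low counts, at least 1 CPM (counts scaled to a fixed library total) in a minimum of 2 libraries, kept 13843 genes and 5 of these 7. Edn3 and Edn2 did not pass it.

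CBs sit where the carotid arteries branch and sense arterial oxygen, and their response to hypoxia matures after birth. RNA was prepared from pooled CBs of Sprague Dawley rats without any treatment, at postnatal day 5 (neonates) or day 21 (adults), and 2 libraries per age were used. By the labels, a library held the CBs of 6 pups or 3 older rats, and part of the litter was kept to the later age, so that animals of both ages may be littermates. The study states larger pools, more libraries per age and animals of both sexes. A day 21 rat is at weaning age and is called adult here because the study does so.

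Endothelins are short vasoactive peptides that are cut from long precursors, first by furin-type proteases and then by the membrane metalloproteases Ece1 and Ece2. They act on 2 G protein-coupled receptors. The A type, on smooth muscle and pericytes, mainly drives contraction, while the B type, on endothelium and glia, is linked to vasodilator release, peptide clearance and neural crest development. In the CB, endothelin-1 is known as a peptide that increases sensory discharge, and its level is known to rise under hypoxia.

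The libraries held 36286191 to 39476110 estimated counts, so that 3 counts, the limit that a count of 0 allows, corresponded to 0.0736 to 0.0845 CPM after TMM normalization. Such limits cover only counting error within a library. The intervals below cover counting error and the spread between libraries of pooled animals only. With 2 libraries per age, an exact two-sided permutation test of a single gene cannot go below p = 0.333, so tests are edgeR's quasi-likelihood test across all genes. All 10 glomus cell markers examined were detected in every library, with summed levels of 4352 to 5770 CPM in neonates and 4078 to 4928 CPM in adults. Pth, parathyroid hormone, stood at 1773 CPM in the first neonatal library, 208 CPM in the second one and 0 in both adult libraries, so the log2 fold changes of the endothelin genes and the list counts that move are also given without neonate replicate 1. Chga, a granule protein shared by glomus and parathyroid cells, was at 1725 CPM in that library and 793 CPM in the other neonatal one, and it carries most of the neonatal spread of the glomus sum. Summed erythroid markers were 1787 to 3004 CPM in neonates and 783 to 797 CPM in adults, and summed proliferation markers 434 to 516 CPM against 108 to 110 CPM.

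Of the 5 endothelin genes tested, Ednrb, Ece1 and Ece2 passed an adjusted p under 0.05 with higher levels in adults, and none did with higher levels in neonates. Among all genes tested, 31.1% were higher in adults and 31.2% were higher in neonates by the same rule. Only Ednrb also differed by at least 2-fold, a rule met by 13.2% of all genes with higher levels in adults and by 7.68% with higher levels in neonates. The libraries of the ages did not overlap for Ednrb, Ece1 and Ece2, against 83.0% of all genes tested, and they overlapped for Edn1 and Ednra. The median log2 fold change of the 5 genes, neonate over adult, was -0.56, where the median of all genes was -0.0029 and their quartiles were -0.54 and 0.45.

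**Figure D1:**
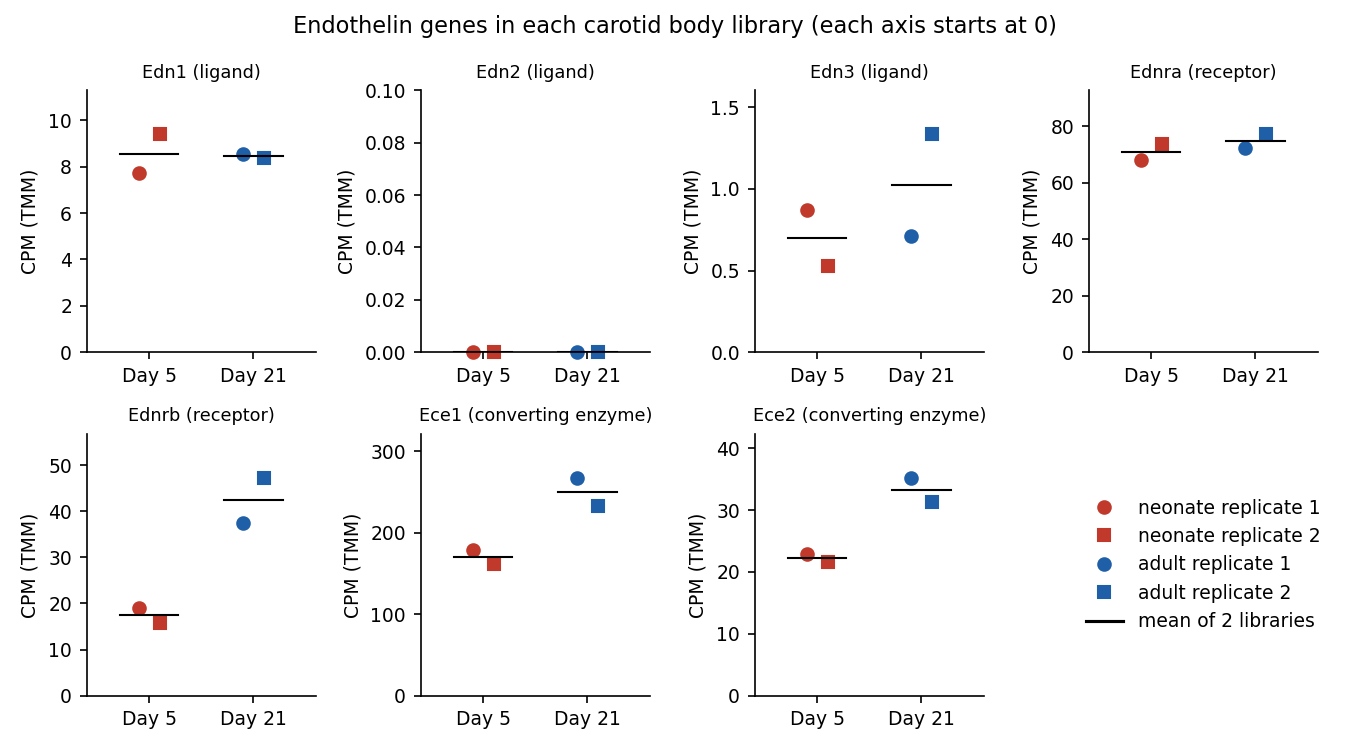
Level of each endothelin gene (vertical axis, CPM after TMM normalization, each panel with its own scale from 0) in the neonatal (day 5) and adult (day 21) libraries, with circles for replicate 1, squares for replicate 2 and lines for the mean of each age. Ednrb, Ece1 and Ece2 lay higher in both adult libraries than in both neonatal ones, Edn1, Edn3 and Ednra overlapped, and Edn2 was at 0 throughout.

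Edn1 (ENSRNOG00000014361) encodes the precursor of endothelin-1, the main vasoconstrictor of the family. Its level was 7.72 and 9.41 CPM in the neonatal libraries and 8.57 and 8.37 CPM in the adult ones, from 274, 338, 349 and 332 reads. Both adult values lay between the neonatal ones. The means were 8.56 ± 1.20 CPM in neonates and 8.47 ± 0.141 CPM in adults (SD, n = 2 each). The log2 fold change of 0.016 (SE 0.19) had a 95% confidence interval from -0.42 to 0.46 and a Benjamini-Hochberg adjusted p of 0.95 by edgeR's quasi-likelihood test, and its sign turned to -0.23 when libraries were scaled by their totals alone. Without neonate replicate 1 it was 0.16. As an adult to neonate ratio, the interval ran from 0.729 to 1.34, so changes larger than these bounds lay outside it.

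The stretch upstream of Edn1 is shown because it is the ligand gene with most reads and carries hypoxia, GATA and TATA letters of the kinds searched. It covers the 250 bases before the RefSeq start on chr17:22666688-22666937, minus strand, in assembly GRCr8, with matches in capitals.

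Edn1: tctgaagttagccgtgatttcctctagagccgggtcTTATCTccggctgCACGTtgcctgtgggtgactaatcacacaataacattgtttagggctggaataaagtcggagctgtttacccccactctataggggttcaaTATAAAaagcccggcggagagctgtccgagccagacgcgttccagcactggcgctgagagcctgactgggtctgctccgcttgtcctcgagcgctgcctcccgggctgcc

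The letters searched, on both strands, were ACGTG or GCGTG (core of the hypoxia response element), AGATAA or TGATAA (sites of GATA factors), TGACTCA or TGAGTCA (AP-1), TATAAA and GGGCGG (GC box). In the Edn1 stretch, ACGTG was found on the reverse strand 201 to 197 bases before the start, AGATAA on the reverse strand at 214 to 209 and TATAAA at 110 to 105. Of all 33469 RefSeq promoter stretches of this length, 36.7% held the hypoxia letters, 16.9% the GATA letters, 12.9% TATAAA, 4.05% the AP-1 letters and 30.5% the GC box. These matches are a description of letters, since binding was not measured.

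Edn2 (ENSRNOG00000009390), the precursor of endothelin-2, had 0 reads in all 4 libraries, which allows a level of up to 0.0736 to 0.0845 CPM per library on the same scale. Edn3 (ENSRNOG00000007477) encodes the precursor of endothelin-3, the ligand that pairs with Ednrb in neural crest development. It was counted with 31 and 19 reads in neonates and 29 and 53 reads in adults, or 0.873, 0.529, 0.712 and 1.34 CPM. One adult library lay between the neonatal ones and the other above both. Without the filter on low counts, its log2 fold change was -0.57 (SE 0.56), with a 95% interval from -1.82 to 0.68 and an adjusted p of 0.45 by edgeR's quasi-likelihood test, so a difference was not detectable at this depth.

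Ednra (ENSRNOG00000012721) encodes the A type receptor. Its level was 67.8 and 73.7 CPM in neonates and 72.1 and 77.2 CPM in adults, from 2409, 2646, 2939 and 3062 reads. The second neonatal library lay between the adult ones, so the ages overlapped. The means were 70.7 ± 4.11 CPM and 74.6 ± 3.55 CPM (SD, n = 2 each), and the log2 fold change of -0.077 (SE 0.088) had an adjusted p of 0.46 by edgeR's quasi-likelihood test, although with libraries scaled by their totals alone it was -0.32 at an adjusted p of 0.018. Without neonate replicate 1 it was -0.0088. The adult to neonate ratio was 1.06, with a 95% interval from 0.919 to 1.21. The upstream stretch of Ednra held GCGTG at 55 to 51 bases before the start.

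Summed levels of 10 smooth muscle and pericyte markers were 1490 and 1560 CPM in neonates and 2355 and 2521 CPM in adults. Within that list, Rgs5, a pericyte gene, was 302 and 265 CPM in neonates and 1009 and 971 CPM in adults. For each 100 reads of Pdgfrb, a mural cell receptor, there were 22.4 and 21.0 Ednra reads in neonates and 28.7 and 27.9 in adults. For each 100 reads of Acta2, smooth muscle actin, there were 27.4 and 27.0 against 27.8 and 28.2. These markers were not typical of their list. Over all 10, Ednra reads per marker read were higher in both adult libraries for 3 markers and lower in both for 7, Rgs5 among them, so the ratio depended on the marker chosen.

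Ednrb (ENSRNOG00000010997) encodes the B type receptor and had the largest difference of the 7 genes. It was at 19.1 and 15.8 CPM in neonates and 37.4 and 47.3 CPM in adults, from 677, 567, 1523 and 1876 reads. The lower adult library was above the higher neonatal one by more than the gap between the neonatal libraries. Mean levels were 17.4 ± 2.32 CPM in neonates and 42.3 ± 6.996 CPM in adults (SD, n = 2 each), 2.43-fold higher in adults with a 95% interval from 1.95 to 3.03. The log2 fold change was -1.28 (SE 0.14), at a Benjamini-Hochberg adjusted p of 7.7e-05 by edgeR's quasi-likelihood test, and 9.28% of all genes tested had a lower log2 fold change. It was -1.41 without neonate replicate 1, and from -1.53 to -1.13 over the 15 alternative settings, past the 2-fold rule in all of them.

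The stretch upstream of Ednrb is shown as that of the gene with the largest difference. It lies on chr15:87086766-87087015, minus strand, GRCr8, and holds GCGTG at 208 to 204 bases before the start and none of the other letters searched.

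Ednrb: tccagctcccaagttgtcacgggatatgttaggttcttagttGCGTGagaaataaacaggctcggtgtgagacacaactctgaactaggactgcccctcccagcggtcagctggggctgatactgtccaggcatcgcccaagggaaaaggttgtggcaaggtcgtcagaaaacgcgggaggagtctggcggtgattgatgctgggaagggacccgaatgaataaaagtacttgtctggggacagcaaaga

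Because whole CBs were sequenced, fewer cells of a type and less RNA per cell cannot be told apart. Ednrb is expressed by glia and endothelium, and their markers are given beside it. The 8 glial markers summed to 1144 and 1998 CPM in neonates and 1902 and 2059 CPM in adults. The 8 endothelial markers in the table summed to 1181 and 1230 CPM in neonates and 1296 and 1317 CPM in adults. None of these markers was at 0 in all libraries.

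The log2 fold change of Ednrb lay further towards adults than that of 8 of 8 endothelial, 7 of 8 glial, 9 of 10 smooth muscle and pericyte and 4 of 5 fibroblast markers tested. Of 4 adipocyte markers tested, 3 lay further towards adults than Ednrb. Adipoq, the adipocyte hormone adiponectin, was at 2.39 and 1.98 CPM in neonates and 11.7 and 13.2 CPM in adults. The other tested marker, Fabp4, was higher in neonates, at 134 and 178 CPM against 94.1 and 125 CPM. All 5 listed adipocyte markers summed to 139 and 185 CPM in neonates and 118 and 161 CPM in adults. Of 7 macrophage markers, 6 were higher in adults, and their sums were 77.1 and 88.1 CPM in neonates and 142 and 138 CPM in adults. Gfap, an intermediate filament of glia, was the glial marker beyond Ednrb, with 4.20 and 4.20 CPM in neonates and 14.6 and 18.0 CPM in adults. For each 100 reads of Sox10, a glial transcription factor, there were 13.8 and 12.9 Ednrb reads in neonates and 37.0 and 43.1 in adults. For each 100 reads of Cdh5, the endothelial cadherin, there were 7.45 and 6.60 against 17.0 and 21.9. Over the whole lists, Ednrb reads per marker read were higher in both adult libraries for 6 of 8 glial and 8 of 8 endothelial markers. Whether a shift in cell types had a part in the difference was not tested.

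**Figure D2:**
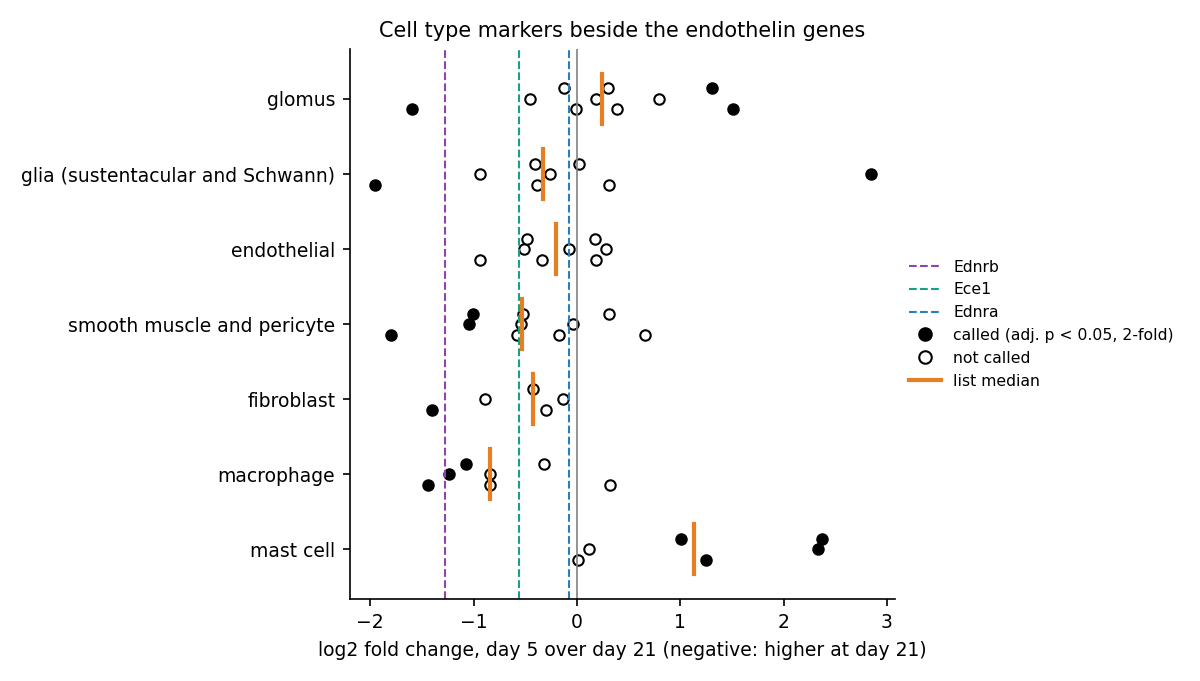
Log2 fold change (day 5 over day 21, horizontal axis, negative for higher in adults) of each tested marker in 7 cell type lists, with filled points for markers past an adjusted p under 0.05 and 2-fold, open points for the others, a short bar at each list's median and dashed lines at the values of Ednrb, Ece1 and Ednra. All 8 endothelial and 7 of 8 glial markers lay to the right of the Ednrb line, and 4 of the 6 mast cell markers tested were filled and above 0.

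The balance of the receptors was compared within each library, where scaling cancels. The ratio of Ednra to Ednrb reads was 3.56 and 4.67 in neonates and 1.93 and 1.63 in adults. Both neonatal ratios were above both adult ones, with means of 4.11 ± 0.784 and 1.78 ± 0.210 (SD, n = 2 each), 2.31-fold higher in neonates. The ratio of Ednrb to Edn1 reads was 2.47 and 1.68 in neonates and 4.36 and 5.65 in adults. The ratio of Ednra to Edn1 reads was 8.79, 7.83, 8.42 and 9.22, with overlapping ages. These ratios of reads carry the genes' lengths and were read only between ages.

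**Figure D3:**
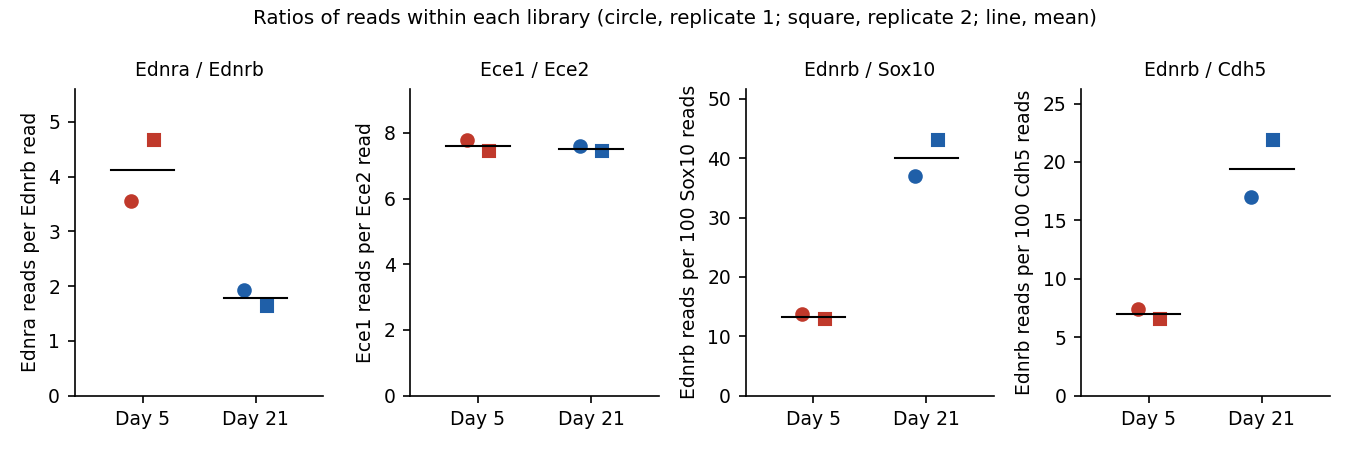
Reads of 1 gene relative to another within each library (vertical axes from 0, per read or per 100 reads), for Ednra to Ednrb, Ece1 to Ece2, Ednrb to Sox10 and Ednrb to Cdh5, with circles for replicate 1, squares for replicate 2 and lines for the mean of each age. The Ednra to Ednrb ratio was 4.11 in neonates and 1.78 in adults on average, the Ece1 to Ece2 ratio overlapped, and Ednrb was higher in both adult libraries against both markers.

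Ece1 (ENSRNOG00000014241) encodes the main converting enzyme, which cuts big endothelin-1 to the active peptide. Its level was 178 and 161 CPM in neonates and 268 and 233 CPM in adults, from 6335, 5796, 10911 and 9259 reads. Both adult libraries were above both neonatal ones. Ece1 was 1.47-fold higher in adults, with a 95% interval from 1.27 to 1.71 and a log2 fold change of -0.56 (SE 0.094) at an adjusted p of 0.00086 by edgeR's quasi-likelihood test. It stayed under 0.05 in all 15 alternative settings, with log2 fold changes from -0.81 to -0.47, and under 2-fold in each. Without neonate replicate 1 it was -0.62.

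Ece2 (ENSRNOG00000001715) encodes a related enzyme that works at acidic pH and is found in neuroendocrine tissue. It was at 22.9 and 21.7 CPM in neonates and 35.2 and 31.4 CPM in adults, from 814, 778, 1436 and 1245 reads, again with no overlap. Mean levels were 22.3 ± 0.896 CPM and 33.3 ± 2.74 CPM (SD, n = 2 each), 1.49-fold higher in adults with a 95% interval from 1.27 to 1.76. The log2 fold change was -0.58 (SE 0.10), at an adjusted p of 0.0012 by edgeR's quasi-likelihood test, and from -0.82 to -0.52 over the 15 alternatives, all at an adjusted p under 0.05. Without neonate replicate 1 it was -0.61.

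The Ece1 to Ece2 ratio of reads was 7.78 and 7.45 in neonates and 7.60 and 7.44 in adults. It differed between ages by less than the spread between libraries, with means of 7.62 ± 0.235 and 7.52 ± 0.114 (SD, n = 2 each). For each 100 Cdh5 reads there were 69.7 and 67.5 Ece1 reads in neonates and 122 and 108 in adults, while Edn1 gave 3.02 and 3.94 against 3.90 and 3.87. For each 100 reads of Chgb, a granule protein of glomus cells, there were 3.75 and 3.83 Ece2 reads in neonates and 5.30 and 6.08 in adults. Over all 8 endothelial markers, Ece1 reads per marker read were higher in both adult libraries for 4, lower in both for 1 and overlapping for 3. For Edn1 these counts were 2, 4 and 2. Ece2 reads per marker read were higher in both adult libraries for 8 of 10 glomus markers, lower in both for 1 and overlapping for 1.

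The stretches upstream of the converting enzyme genes are shown together because both genes were higher in adults. Both hold the GC box and none of the other letters searched. Their GC contents of 69.2% and 76.4% compare with a median of 51.2% over all promoter stretches. Edn1, Ednrb, Ednra and Edn2 were at 56.4%, 53.2%, 61.2% and 69.6%. The stretch of Edn2, which had 0 reads, also holds the GC box, as do 30.5% of all stretches. These traits were thus not particular to the genes higher in adults. Ece1 lies on chr5:155360781-155361030, plus strand, and Ece2 on chr11:93782639-93782888, minus strand, both in GRCr8. The box was found in Ece1 at 86 to 81 and at 52 to 47 bases before the start, both on the reverse strand, and in Ece2 at 56 to 51 on the forward strand.

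Ece1: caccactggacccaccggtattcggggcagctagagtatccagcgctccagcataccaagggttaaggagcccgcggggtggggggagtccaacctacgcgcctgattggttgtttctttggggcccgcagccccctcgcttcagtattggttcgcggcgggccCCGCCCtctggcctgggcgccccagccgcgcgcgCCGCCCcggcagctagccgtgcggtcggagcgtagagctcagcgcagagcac

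Ece2: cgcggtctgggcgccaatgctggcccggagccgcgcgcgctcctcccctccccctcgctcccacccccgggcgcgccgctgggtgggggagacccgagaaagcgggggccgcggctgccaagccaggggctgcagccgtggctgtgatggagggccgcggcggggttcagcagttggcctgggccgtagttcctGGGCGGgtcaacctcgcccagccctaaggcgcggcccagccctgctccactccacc

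**Figure D4:**
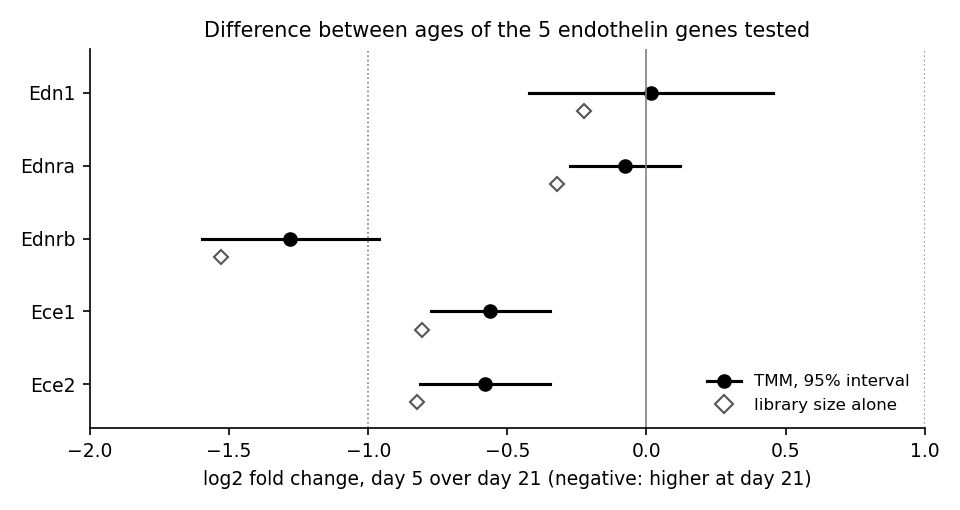
Log2 fold change (day 5 over day 21, horizontal axis, negative for higher in adults) of the 5 endothelin genes tested, with filled points and bars for edgeR's estimate and 95% confidence interval after TMM normalization, diamonds for scaling by library size alone and dotted lines at 2-fold. The intervals of Ednrb (-1.60 to -0.96), Ece1 (-0.77 to -0.35) and Ece2 (-0.81 to -0.35) lay below 0 and those of Edn1 and Ednra crossed it, while all 5 diamonds lay below 0.

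The genes around these 7 were read from 8 lists with 60 symbols, of which 59 were in the table and 56 passed the filter. At an adjusted p under 0.05, 26 were higher in adults, 12 were higher in neonates and 18 did not pass, where 31.1% and 31.2% of all genes were higher in each age. With the 2-fold rule, 13 were higher in adults and 3 in neonates, where 13.2% and 7.68% of all genes passed it. Of these, Phex and Gdnf reached 1 CPM only in the adult libraries and Kel only in the neonatal ones. The filter kept these genes only through the age where they were high, so their calls are no support for a difference. The median log2 fold change over the 56 genes was -0.32. When libraries were scaled by their totals alone, which moved the median of all genes from -0.0029 to -0.25, 32 were higher in adults and 6 in neonates. Without neonate replicate 1, 25 of 55 tested were higher in adults and 10 in neonates.

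Precursor cleavage was represented by 4 furin-type proteases, of which 2 were higher in adults and 2 did not pass. With the replicate block, 3 were higher in adults. Pcsk6 was at 39.1 and 43.7 CPM in neonates and 76.1 and 68.3 CPM in adults, with a log2 fold change of -0.80. Furin was at 133 and 120 CPM in neonates and 172 and 160 CPM in adults, with a log2 fold change of -0.39. Both were higher in both adult libraries and below 2-fold. The list median was -0.42, and -0.28 and -0.59 without neonate replicates 1 and 2. It was -0.54 and -0.34 without adult replicates 1 and 2.

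Among 7 genes of peptide breakdown and the neprilysin family, 2 were higher in adults, 4 were higher in neonates and 1 did not pass. The median was 0.74, the log2 fold change of Mmel1. By library size alone, 2 were higher in neonates, since Mmel1 (log2 fold change 0.50) and Kel (0.97) no longer passed. Mmel1 was at 0.75 and 0.67 without adult replicates 1 and 2. Kel passed the filter only through the neonatal libraries and Phex only through the adult ones. With any 1 library left out, 1 of them was therefore not tested. The medians of the remaining 6 genes were 0.34 and 0.023 without neonate replicates 1 and 2. They were 1.05 and 0.86 without adult replicates 1 and 2. These medians are over fewer genes than the 0.74, so they do not show how far it rested on single libraries. Cma1, a mast cell chymase, fell from 35.4 and 35.3 CPM in neonates to 7.29 and 6.35 CPM in adults. That is 2.37 on the log2 scale at an adjusted p of 2.4e-06 by edgeR's quasi-likelihood test. Cma1 is also 1 of the 7 mast cell markers, which summed to 78.4 and 82.0 CPM in neonates and 28.4 and 24.7 CPM in adults, and the part of mast cell number in its difference was not tested. Ecel1, a neuronal relative of the converting enzymes, was at 22.4 and 17.7 CPM in neonates and 7.44 and 6.07 CPM in adults. Phex, a metalloprotease best known from bone, was at 0.563 and 0.835 CPM in neonates and 1.99 and 3.73 CPM in adults. Since the filter kept Phex only through the adult libraries, its call is no support for a difference. The other gene higher in adults was Ctsa, at 120 and 130 CPM in neonates and 184 and 180 CPM in adults (log2 fold change -0.54). Mme, neprilysin itself, which degrades endothelins, was at 2.08 and 3.95 CPM against 3.83 and 5.19 CPM and did not pass (adjusted p = 0.18 by edgeR's quasi-likelihood test), but did without neonate replicate 2 (log2 fold change -1.09, adjusted p = 0.013).

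Of the 9 G protein alpha subunits that receptors of this class can engage, 6 were higher in adults, 1 was higher in neonates and 2 did not pass, with a median of -0.67. Gnaq, which links both receptors to phospholipase C, was at 7.72 and 8.96 CPM in neonates and 22.8 and 26.6 CPM in adults (log2 fold change -1.57). Its close relative Gna11 was at 8.65 and 9.19 CPM against 19.7 and 17.9 CPM. Gnai1, an inhibitory subunit, was at 12.6 and 12.5 CPM against 27.9 and 29.3 CPM. These 3 passed the 2-fold rule. The subunit higher in neonates was Gnas, which stimulates adenylyl cyclase, at 2328 and 2113 CPM against 1647 and 1221 CPM, read from the entry with more reads of 2 with this symbol.

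Of 7 phospholipase C and IP3 receptor genes, 4 were higher in adults, 1 was higher in neonates and 2 did not pass, with a median of -0.30. Without adult replicate 1 or 2, Plcb2 did not pass the filter. The medians of the remaining 6 genes were then -0.48 and -0.40, over fewer genes than the -0.30. The gene higher in neonates was Itpr3, whose call was lost without neonate replicate 2, without adult replicate 1 and by library size alone. Itpr2, an IP3-gated calcium channel, had the 1 change past 2-fold, with 2.68 and 2.95 CPM in neonates and 6.70 and 7.61 CPM in adults. Among 6 receptor kinases and arrestins, 2 were higher in each age and 2 did not pass. Their median was -0.23, and -0.15 without neonate replicate 1, where Grk5 no longer passed, as it did not without adult replicate 2. With library size alone, Grk6 no longer passed as higher in neonates. Grk3, a kinase that desensitizes G protein-coupled receptors, was at 5.46 and 5.71 CPM in neonates and 26.4 and 25.9 CPM in adults (log2 fold change -2.23, the lowest of the 56).

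Of 11 RhoA and protein kinase C genes, 7 were higher in adults, 2 were higher in neonates and 2 did not pass, with a median of -0.54. The protein kinase C isoform genes Prkca, Prkcb and Prkce passed the 2-fold rule, with log2 fold changes of -1.36, -1.55 and -1.79. Prkca, which had the most reads of the 3, was at 31.7 and 32.5 CPM in neonates and 88.5 and 76.4 CPM in adults. The 2 genes higher in neonates were Arhgef1, a RhoA activator (log2 fold change 0.94), and Prkcd, another isoform (0.58).

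**Figure D5:**
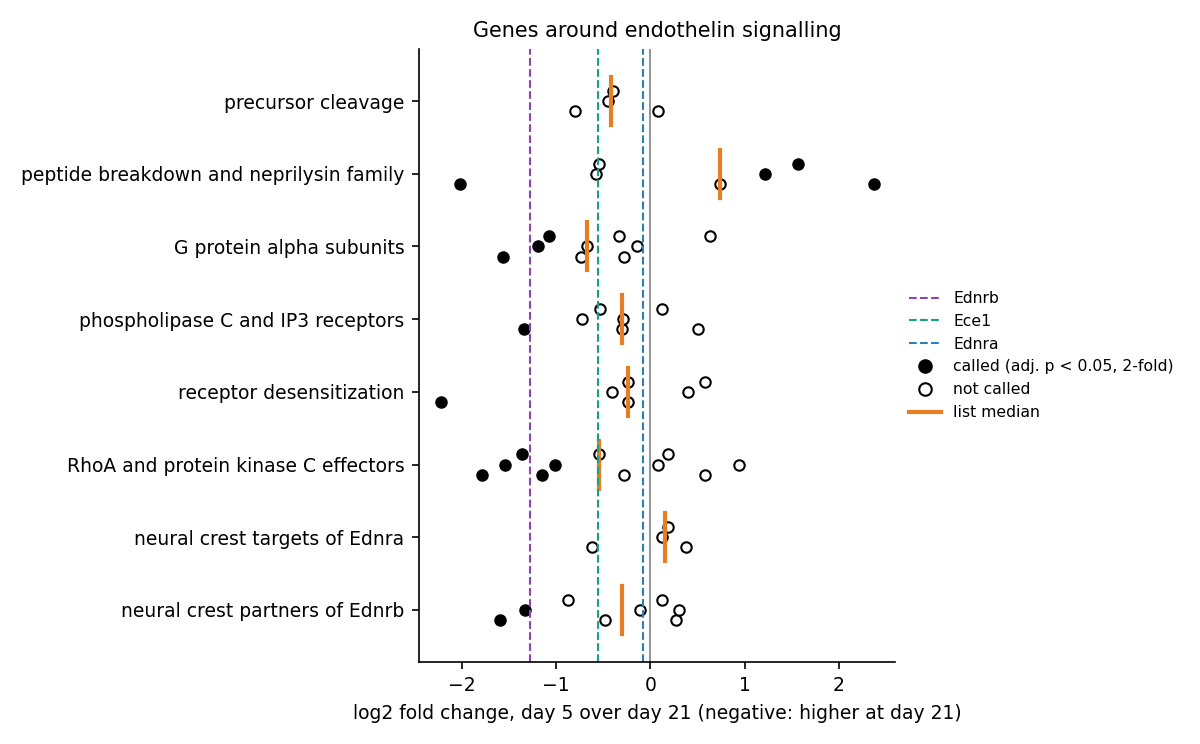
Log2 fold change (day 5 over day 21, horizontal axis, negative for higher in adults) of each tested gene in the 8 lists around the endothelin genes, with filled points for genes past an adjusted p under 0.05 and 2-fold, open points for the others, a short bar at each list's median and dashed lines at the values of Ednrb, Ece1 and Ednra. Medians ran from -0.67 for G protein alpha subunits to 0.74 for peptide breakdown and the neprilysin family. That last list had genes on both sides of 0, with Mme (-0.58) and Ctsa (-0.54) below it and Cma1 (2.37) and Ecel1 (1.57) above it.

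Developmental targets of Ednra in the neural crest were read from 6 genes, of which 4 were tested and none passed in either direction at an adjusted p under 0.05 by edgeR's quasi-likelihood test, while 2 of them, Hand2 and Dlx6, had an unadjusted p under 0.05. The median was 0.16, ran from 0.072 to 0.25 with each library left out, and was -0.087 when libraries were scaled by their totals alone. Hand2, a transcription factor also used by glomus cells, was at 62.4 and 81.1 CPM in neonates and 63.7 and 46.3 CPM in adults, with overlapping ages. It passed as higher in neonates without neonate replicate 1 (log2 fold change 0.57), without adult replicate 1 (0.60), by DESeq2 and with the replicate block. Dlx6, another transcription factor, passed as higher in adults without neonate replicate 2 (-0.76) and by library size alone (-0.87). Genes that act with Ednrb in the neural crest numbered 10, of which 9 were in the table and 8 were tested. Of these, 3 were higher in adults, 2 were higher in neonates and 3 did not pass. None was higher in neonates by library size alone. The median of the 8 was -0.30. Without adult replicate 1 or 2, Gdnf was not tested, and the medians of the remaining 7 genes were -0.074 and -0.21. Those medians are over fewer genes, so they are not directly comparable with -0.30.

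Gdnf, a neurotrophic ligand, was at 0.986 and 0.863 CPM in neonates and 2.36 and 2.32 CPM in adults. Like Phex, it passed the filter only through the adult libraries, so its call is no support for a difference. Sox10 was higher in neonates, at 138 and 122 CPM against 101 and 110 CPM (log2 fold change 0.31), but the call was lost without neonate replicate 1 (0.23), without adult replicate 1 (0.22) and by library size alone (0.061). The other gene higher in neonates, L1cam, a neural cell adhesion protein, lost its call without neonate replicate 1, without adult replicate 2 and by library size alone. Ret, the receptor for Gdnf family ligands, was at 46.7 and 49.0 CPM against 54.3 and 49.4 CPM and did not pass (adjusted p = 0.32 by edgeR's quasi-likelihood test), except by library size alone (log2 fold change -0.36, adjusted p = 0.012). Among the 16 genes past the 2-fold rule in these lists, Arhgef12 and Prkch fell below 2-fold without adult replicate 2. Prkch also did so without neonate replicate 2. Without adult replicate 2, Kel was at a log2 fold change of 1.05, against 1.22 with all libraries. The Kel call did not hold by DESeq2, limma-voom, library size alone or without the filter on low counts. Phex and Gdnf were no longer tested without either adult replicate, since 1 adult library cannot meet the filter.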

How the data were processed

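Estimated counts per gene, as the authors deposited them, came from 100-base paired-end poly(A) reads by trimming, STAR and Salmon 1.5.2 (submitters' notes) on Rnor_6.0, without normalization. Reads that fit several copies were split, and 5.02% to 6.19% of genes per library had fractional estimated counts. Counts were rounded, 636 genes whose symbol is annotated as something other than protein-coding were left out, and a gene was tested if it reached 1 CPM in 2 or more libraries. Neonates (2 libraries) were compared with adults (2 libraries) in R 4.3.3 by the quasi-likelihood test of edgeR 4.0.16 after TMM normalization (factors 0.902 to 1.10), with Benjamini-Hochberg adjustment over 13843 genes, and tested on simulated data. Negative log2 fold changes mean higher in adults. Alternatives used limma 3.58.1 and DESeq2 1.42.0, other scalings, filters and each library left out.

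The members and lists were chosen with earlier results of these data known. All 7 members are named, and at most 3 genes per list, those with the largest change past 2-fold. Further genes were named to describe a list or cell type after their values were seen. Upstream sequences are from RefSeq (GRCr8), with 6 of 7 members matched. Gfra1 and Pecam1 were not analysed here. Some list genes are counted but not reported by name. Nothing in the labels says that libraries of an age came from separate litters, so p-values measure the spread between these libraries.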

Additional observations from a re-analysis of the deposited data

How the results depend on the processing

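Ednrb, Ece1 and Ece2 kept their direction in all 15 alternatives, and an adjusted p under 0.05 wherever both libraries of each age were used. The alternatives were DESeq2, limma-voom, other scalings, gene sets and filters, unrounded counts, a replicate block and each library left out. Ednra passed only when libraries were scaled by their totals alone. Edn1 passed in none (adjusted p 0.34 to 0.99), and its sign turned with library size alone (-0.23), no filter on low counts (-0.0088) and a mean of at least 5 CPM (-0.020), and it ran from -0.12 to 0.16 with each library left out. The cause was not tested. The 2885 genes past 2-fold became 1823 with a mean of at least 5 CPM, 3253 by library size alone (21.6% higher in neonates against 36.8%) and 8625 without a minimum fold, by which rule 3 endothelin genes and 38 listed genes counted rather than 1 and 16. Replicate numbers did not pair the libraries (correlation of deviations -0.015 over 13843 genes). With the replicate block, 2937 genes, 1 endothelin gene and 16 listed genes were past 2-fold, and Ednrb was at -1.28. Edn3, with at most 53 reads, and Edn2, with 0, were limited by depth.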

Other observations

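The genes whose levels followed each endothelin gene most closely over the 4 libraries were found by Euclidean distance between log2 CPM values centred on their means, among 10690 genes with a symbol and a mean of at least 5 CPM. For Ednrb they were Timp4, an inhibitor of matrix metalloproteases, at 0.011 and Tnrc6c, a partner of Argonaute proteins, at 0.038, with 66 genes closer than 0.2. For Ednra they were Lrch4 at 0.015 and Jak2, a cytokine receptor kinase, at 0.019, with 1288 genes closer than 0.2. For Edn1 they were Casc4 at 0.012 and Uri1 at 0.035, for Ece1 Leng9 at 0.018 and Tmcc2 at 0.022, and for Ece2 Agfg2 at 0.023 and Fkbp11 at 0.033. With 4 libraries of 2 ages, such closeness is a description of these libraries.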
